A study of Mus musculus with 8 samples.

Results

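The genes described here are 9 transcripts by which microglia at rest, called homeostatic microglia, are commonly recognised: P2ry12, Cx3cr1, Csf1r, Gpr34, Tmem119, Siglech, Fcrls, Sall1 and Olfml3. They were chosen by name, and every array probe whose RefSeq accession mapped to one of these symbols was taken. The 9 genes had 13 probes (4 genes with 2 probes and 5 with 1) among 32994 named probes for 22911 genes. Each of 8 mouse RNA samples was hybridised to 1 one-colour microarray, which reports a fluorescence signal per probe, and each group has 1 array.

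Brain tissue arrays came from wild type (WT) and DEREG mice, from the injured hemisphere's slice 3 at day 14 after stroke or sham surgery, which gave the groups WT sham, DEREG sham, WT ischemia and DEREG ischemia. DEREG mice carry a diphtheria toxin receptor transgene under the control of Foxp3, the defining transcription factor of regulatory T cells (Treg). The labels do not state whether toxin was given, and they do not give age, sex, strain background or whether animals were pooled. The other 4 arrays held CD4+ T cells, labelled Treg or nonTreg, from the ischemic brain of WT mice at day 14 and from the spleen of untreated mice. How Treg and nonTreg were separated is not stated in the labels. All values are described within the tissue arrays and within the T cell arrays, never across.

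Tissue arrays had 62.0% to 65.1% of their probes well above background, and T cell arrays 47.6% to 51.9%. Marker genes fitted the tissue label: 10 of 10 neuron, 10 of 10 astrocyte and 8 of 8 oligodendrocyte genes were above background on each tissue array. Of 10 T cell genes, 9 were above background in spleen nonTreg and 10 in each of the other T cell libraries. Foxp3 signal was 4717 (brain Treg) and 820.5 (brain nonTreg), and in the spleen 7017 (Treg) and 9.75 (nonTreg, not above background). The library labelled brain nonTreg therefore held measurable Foxp3. Because every group is a single array, the differences have no replicate check and none was tested, and the number of arrays limits the precision. The errors given are the scanner software's own estimate for a spot, carried to the log2 difference; they cover technical noise of the spot only.

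Microglia are the resident macrophages of the brain parenchyma. They depend on Csf1r signalling, which is driven by the ligands Csf1 and Il34, and they take on their brain-specific state under TGF-beta, with the transcription factor Sall1 helping to hold it. Cx3cr1 binds Cx3cl1, a chemokine displayed by neurons, and P2ry12 senses nucleotides released by injured cells. In activated microglia this gene set is known to decline per cell while genes of phagocytosis and lipid handling increase, and several of the 9 genes, Csf1r and Cx3cr1 among them, are also expressed by monocytes and other macrophages. Siglech is also a marker of plasmacytoid dendritic cells.

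Upstream sequences are shown for 3 of these genes that were measured together below: P2ry12, whose tissue signal differed least between stroke and sham among the genes with agreeing or single probes, Fcrls, whose signal differed most, and Cx3cr1, whose 2 probes gave nearly the same differences. They are the RefSeq sequences of build GRCm38.p6 just before an annotated start, written 5′ to 3′ on the gene's strand. Capitals mark a match to AGGAAGT on either strand, the core bound by the macrophage factor PU.1 (encoded by Spi1). The Fcrls stretch lies mostly inside the annotated gene (chr3:87250736-87263765), because another transcript starts further upstream.
P2ry12 upstream, chr3:59262986-59263235, minus strand: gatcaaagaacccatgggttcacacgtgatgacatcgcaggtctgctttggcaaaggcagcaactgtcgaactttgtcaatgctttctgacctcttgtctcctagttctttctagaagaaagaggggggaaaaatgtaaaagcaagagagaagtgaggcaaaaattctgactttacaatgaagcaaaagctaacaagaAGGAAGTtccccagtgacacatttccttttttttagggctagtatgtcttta
Fcrls upstream, chr3:87263525-87263774, minus strand: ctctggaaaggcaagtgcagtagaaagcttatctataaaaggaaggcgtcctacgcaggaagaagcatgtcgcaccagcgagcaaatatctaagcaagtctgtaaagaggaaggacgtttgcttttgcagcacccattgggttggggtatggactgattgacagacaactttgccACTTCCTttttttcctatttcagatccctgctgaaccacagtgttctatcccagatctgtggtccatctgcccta
Cx3cr1 upstream, chr9:120068297-120068546, minus strand: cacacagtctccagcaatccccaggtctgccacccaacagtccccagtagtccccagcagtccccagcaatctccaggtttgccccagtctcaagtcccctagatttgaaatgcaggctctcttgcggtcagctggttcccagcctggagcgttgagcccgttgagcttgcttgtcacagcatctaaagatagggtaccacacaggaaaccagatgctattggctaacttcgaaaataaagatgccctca
In P2ry12 the match began at position -52 from the start on the gene's strand, and in Fcrls at -75 on the opposite strand, where it reads ACTTCCT. The Cx3cr1 stretch held none. The 8 upstream windows used belong to 6 of the 9 genes, 3 of them to Sall1, and none to Csf1r, Tmem119 or Gpr34. Of these 8, 3 held AGGAAGT, the third being 1 of the Sall1 windows, against 7.69% of all 32851 windows searched. That Sall1 window (chr8:89042863-89043112) lies inside the annotated gene (chr8:89027242-89044162), and the other Sall1 windows held no match. The longer GAGGAAGT, which contains it, was in 0 of 8 against 2.44%, and the PU.1-IRF composite element in 0 of 8 against 2.3%. AGGAAGT was chosen after the sequences had been read, and a match describes letters only.

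In WT brain tissue, 7 of the 9 genes were at least 2-fold higher after stroke than after sham. Over all 16968 genes compared, 18.8% were this much higher and 18.4% this much lower, and 0 of the 9 were lower. The median of the 9 genes was 2.69 on the log2 scale, against -0.14 for all genes. All 13 probes were well above background on all 4 tissue arrays, so each value is measured on both sides. In bulk tissue, more cells of a type and more RNA per cell cannot be told apart.

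**Figure D1:**
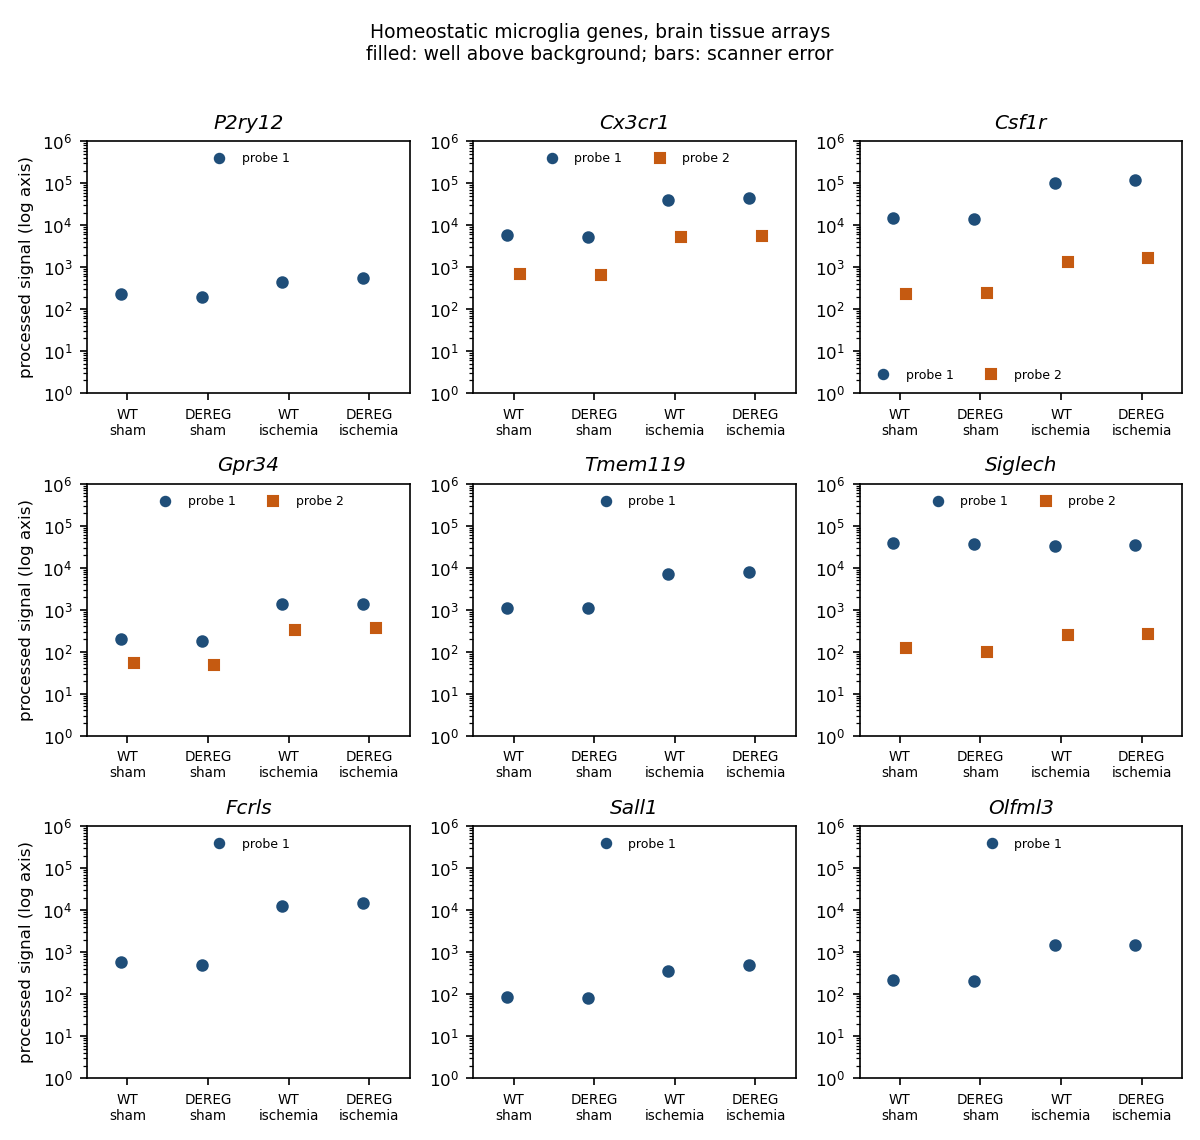
Processed signal (log axis, arbitrary fluorescence units) of every probe of the 9 genes on the 4 brain tissue arrays, 1 array per group, with bars for the scanner error where they exceed the symbol. All ischemia signals stand above both sham signals except for Siglech probe 1, which runs from 33701 to 39450. The share of all genes with this order was not counted.

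The surface receptors came first. P2ry12 signal was 232 (WT sham), 191 (DEREG sham), 443 (WT ischemia) and 549.9 (DEREG ischemia). Both stroke values lay above both sham values, and after scaling the difference in WT was 0.90 ± 0.21 (log2, scanner error), or 1.87-fold, short of 2-fold. In DEREG it was 3.05-fold. P2ry12 was thus the gene with the smallest stroke difference apart from Siglech.

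Cx3cr1 probe 1 read 5682 (WT sham), 5363 (DEREG sham), 40827 (WT ischemia) and 45294 (DEREG ischemia). Probe 2 read 673, 648, 5151 and 5498 in the same order. Both probes placed this chemokine receptor about equally higher after stroke, by 7.04-fold and 7.49-fold in WT and by 8.97-fold and 9.02-fold in DEREG.

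Csf1r, the receptor on which microglial survival depends, read 15168 (WT sham), 14093 (DEREG sham), 99785 (WT ischemia) and 122318 (DEREG ischemia) for probe 1. Csf1r probe 2 gave 224, 242, 1300 and 1661 in that order. In WT the stroke difference was 6.44-fold by probe 1 and 5.68-fold by probe 2, and in DEREG 9.22-fold and 7.28-fold. Both Csf1r probes ordered the sham and stroke arrays alike, and they disagreed in sign only between the shams, where DEREG minus WT was -0.20 ± 0.20 by probe 1 and 0.02 ± 0.21 by probe 2.

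Gpr34, a lysophosphatidylserine receptor, had signals of 201 (WT sham), 177 (DEREG sham), 1344 (WT ischemia) and 1351 (DEREG ischemia) for probe 1. Probe 2 gave 54.3, 49.1, 329 and 370. The stroke samples were 6.54-fold and 5.94-fold higher in WT and 8.10-fold and 8.00-fold higher in DEREG.

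Of the membrane proteins, Tmem119, a microglial transmembrane protein, read 1112 (WT sham), 1108 (DEREG sham), 6934 (WT ischemia) and 7892 (DEREG ischemia). It was 6.10-fold higher after stroke in WT and 7.57-fold higher in DEREG. Fcrls, an Fc receptor-like scavenger receptor, read 605, 507, 12676 and 14927 in the same order. Fcrls showed the widest separation of the 9 genes, 4.36 ± 0.20 in WT (20.5-fold) and 4.97 ± 0.20 in DEREG (31.3-fold).

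Siglech, a sialic acid-binding lectin, was the one gene of the 9 whose probes gave stroke differences of opposite sign. Probe 1 read 39450 (WT sham), 37164 (DEREG sham), 33701 (WT ischemia) and 34063 (DEREG ischemia), a difference of -0.26 ± 0.20 in WT and -0.04 ± 0.20 in DEREG. Probe 2 read 125, 99.2, 247 and 263, and was 1.93-fold higher after stroke in WT and 2.81-fold higher in DEREG. Probe 1 was nearly flat, while probe 2 followed the order of the other genes. Both probes are assigned to the same transcript accession, and which one reports Siglech was not tested.

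Sall1, the transcription factor of the set, read 88.1 in WT sham and 82.7 in DEREG sham, and 369 in WT ischemia and 488 in DEREG ischemia. It was 4.10-fold higher after stroke in WT and 6.27-fold higher in DEREG. With normexp, another background correction, these Sall1 differences were 1.52 and 2.03 on the log2 scale in place of 2.04 and 2.65. Olfml3, a secreted matrix glycoprotein, read 222, 206, 1474 and 1465, 6.51-fold and 7.56-fold higher.

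**Figure D2:**
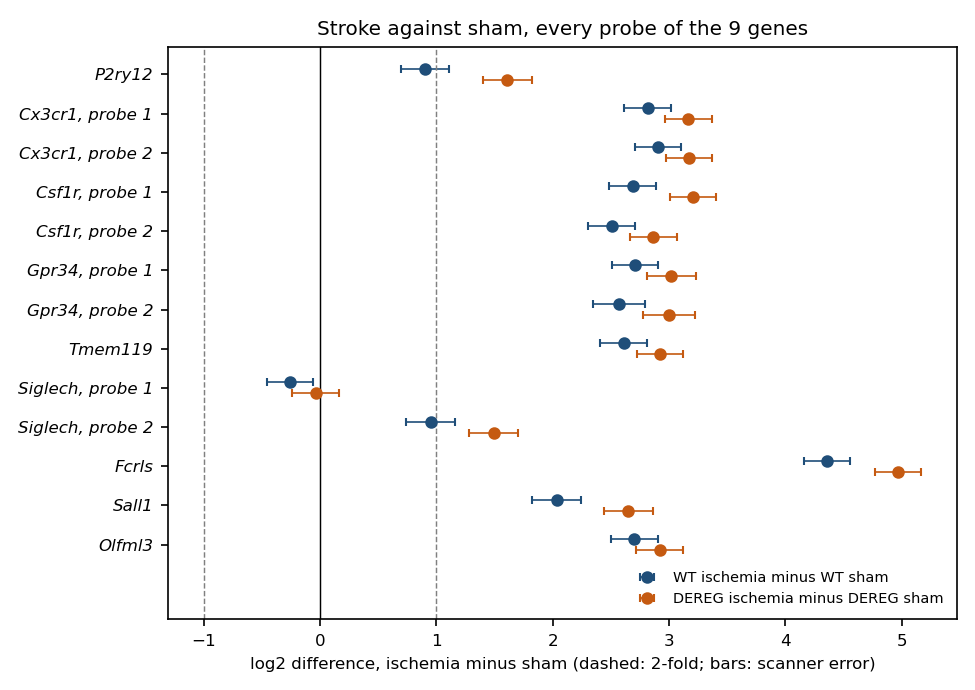
Log2 difference between ischemia and sham for each probe of the 9 genes, in WT and in DEREG, 1 array per group, with bars for the scanner error and dashed lines at 2-fold. Most probes sit between 2 and 3.2, Fcrls lies at 4.36 and 4.97, and P2ry12 and both Siglech probes lie lowest.

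Set against P2ry12 within the same pair of arrays, the stroke difference of Cx3cr1, Csf1r, Gpr34, Tmem119, Fcrls, Sall1 and Olfml3 was larger by between 1.13 (Sall1) and 3.46 (Fcrls) in WT and by between 1.04 (Sall1) and 3.36 (Fcrls) in DEREG, with scanner errors of 0.29 to 0.30. Siglech probe 2 differed from P2ry12 by 0.05 in WT and -0.12 in DEREG, within that error. A difference between 2 genes' differences on the same arrays does not depend on a scaling by 1 value per array. It can change with quantile normalization or normexp, which do not shift all probes of an array alike.

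In DEREG tissue 8 of the 9 genes were at least 2-fold higher after stroke, against 22.4% of 17161 genes compared, and 0 were lower, against 22.1%. The gene added to those of WT was P2ry12. By probe, 10 of 13 reached 2-fold in WT and 12 of 13 in DEREG. The stroke difference was larger in DEREG than in WT for 9 of 9 genes, by 0.22 (Olfml3 and Siglech probe 1) to 0.71 ± 0.29 (P2ry12), with a median of 0.35, and under quantile normalization 8 were larger and 1 smaller. Of 15120 genes with all 4 values, 55.9% lay above 0. No member's difference of differences reached 2-fold. Across those genes 137 (0.906%) were at least 2-fold higher in this sense and 788 (5.21%) lower, or 206 and 571 when the array median was the scaling point.

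Directly between the genotypes, the 9 genes differed little. After stroke, DEREG exceeded WT for 9 of 9 genes, by 0.01 (Olfml3) to 0.43 (Sall1), and 0 reached 2-fold, while of 16857 genes 2.36% were higher by that much, 5.37% lower, and 58.7% above 0. Under quantile normalization 6 were above 0 and 3 below. Between the shams DEREG was lower for 9 of 9 genes, by values from -0.38 (P2ry12) to -0.10 (Tmem119), and 0 reached 2-fold, against 0.59% of 16273 genes higher by that much, 0.449% lower, and 51.8% below 0. With the dimmest probe of each gene, 8 were below 0. Of 13 probes, 6 exceeded 1 scanner error in each of these 2 comparisons, but only 1 in each exceeded about 2 scanner errors. The share of all probes beyond these limits was not counted, so the 6 do not set the 9 genes apart. The comparisons after stroke, between shams and of stroke with sham share arrays, so their values are not independent of each other.

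In the same pair of stroke arrays the markers of some other cell types differed by more than the 9 genes, whose median was 0.21. The T cell list had its median at 1.80 in favour of DEREG, and 7 of 9 genes compared reached 2-fold, led by Cd3g (8.21-fold). The neuron list had its median at -1.16. It held 6 of 10 genes at least 2-fold lower, with Slc17a7, the vesicular glutamate transporter of excitatory neurons, the lowest (-1.81). The neutrophil median was 1.71, where 3 of 5 genes reached 2-fold. Between the shams the neutrophil median was already 0.96, with 2 of 5 genes at least 2-fold higher in DEREG. For the stroke difference of DEREG minus WT the neutrophil median was 0.09, over 3 genes compared. The T cell and neuron medians were 0.18 and -0.04 between the shams. The B cell median was 1.23 over 4 genes compared, 1 of them not above background on 1 array. Astrocyte (0.05), border macrophage and monocyte (0.11) and oligodendrocyte (0.21) medians were no larger than that of the 9. Of 14 border macrophage and monocyte genes, 2 were at least 2-fold higher, Plac8 (2.46-fold) and Ccr2 (2.31-fold). Medians were larger for activated phagocyte genes (0.48, 0 of 15 at 2-fold) and transcription factors tied to microglia (0.44). Those of plasmacytoid dendritic (0.36), vascular and fibroblast (0.35), conventional dendritic (0.34), ligand and TGF-beta (0.34) and other microglia-enriched genes (0.25) were also larger. The summed scaled signal of the T cell list was 5.85 in WT ischemia and 16.2 in DEREG ischemia, and that of the neuron list 152 and 66.5. Whether these shifts in content bear on the microglia values was not tested.

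The ligands of the receptors did not all follow them. Csf1, the ligand of Csf1r, read 556 (WT sham), 728 (DEREG sham), 4694 (WT ischemia) and 8594 (DEREG ischemia), 8.27-fold and 12.6-fold higher after stroke. Il34, the other Csf1r ligand, made largely by neurons, read 4625, 4796, 2255 and 2150 and was 2.09-fold and 2.10-fold lower. Cx3cl1, the ligand of Cx3cr1, read 43340, 42542, 12642 and 6127. Cx3cl1 was 3.5-fold lower after stroke in WT and 6.54-fold lower in DEREG, and was 2.03-fold lower in DEREG ischemia than in WT ischemia. Receptor and ligand signals thus lay on opposite sides of sham for Cx3cr1 and Cx3cl1, and for Csf1r and Il34.

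Of the 10 genes on the list of ligands and the TGF-beta pathway, 6 were at least 2-fold higher and 2 lower in each genotype, with medians of 2.34 and 2.87. Tgfb1, encoding the cytokine TGF-beta 1, was 19.7-fold higher in WT and 19.1-fold in DEREG, and Tgfbr2, its type II receptor, 11.4-fold and 14.9-fold.

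Of 8 transcription factors tied to microglia, 6 were at least 2-fold higher after stroke in each genotype and 1, Mef2c, a factor that neurons also express, was lower (-1.0 in WT and -1.76 in DEREG). Spi1, which encodes PU.1, was dim. It read 15.2 in the DEREG sham, 254 after stroke in WT and 357 after stroke in DEREG, while the WT sham signal of 11.2 was not well above background. The WT difference was at least 21.1-fold, a lower bound, and the DEREG difference 24.9-fold. Such a bound divides the bright value by the weakest value called above background on the dim array or, if larger, by the value the probe itself had there. Sall3, a relative of Sall1, read 79.5 (WT sham), 82.7 (DEREG sham), 298 (WT ischemia) and 327 (DEREG ischemia).

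Other genes enriched in microglia lay near the 9. Of 27, 21 were at least 2-fold higher in each genotype, with medians of 2.69 and 2.92, and Tyrobp (32.0-fold in WT), Laptm5 (27.5-fold) and Trem2 (27.0-fold), all of which encode parts of myeloid receptor or lysosomal systems, led in WT. Itgam was the 1 gene of this list at least 2-fold lower, in DEREG only (2.22-fold). For border macrophages and monocytes, 13 of 14 genes reached 2-fold higher signals in each genotype (medians 3.41 and 3.49), with Lyz2, encoding lysozyme, being 550-fold higher in WT. Genes of activated phagocytes had medians of 6.47 and 6.02, and 14 of 15 in WT and 15 of 15 in DEREG were at least 2-fold higher. Gpnmb, a glycoprotein of lipid-laden phagocytes, was at least 2190-fold higher in WT and 1410-fold in DEREG. Lgals3, encoding galectin-3, was 1070-fold higher in WT.

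The lists of activated phagocytes and of border macrophages and monocytes thus had larger medians than the 9 genes in both genotypes. The summed scaled signal of the border macrophage and monocyte list was 20.9 and 28.2 in the shams and 160 and 214 after stroke, and the part of those cells in the values of Csf1r, Cx3cr1 and the other shared genes was not tested. All 10 neuron genes were at least 2-fold lower after stroke in both genotypes, with medians of -1.87 and -2.98. Astrocyte genes had medians of 0.56 and 0.83, and oligodendrocyte genes of -0.13 and 0.09. Vascular and fibroblast genes had 5 of 13 at least 2-fold higher in WT and 8 of 13 in DEREG (medians 0.56 and 1.2). T cell genes had medians of 1.70 and 3.91. Of 9 compared, 5 were at least 2-fold higher in WT and 8 in DEREG. In each genotype 1 was lower, Cd4 (2.93-fold in WT and 2.16-fold in DEREG). Summed T cell signal was 4.42 (WT sham), 4.24 (DEREG sham), 5.85 (WT ischemia) and 16.2 (DEREG ischemia). Of 5 neutrophil genes, 4 were at least 2-fold higher in each genotype (medians 3.43 and 4.22), and conventional dendritic cell genes lay at 1.35 and 1.38, B cell genes at 0.72 and 2.67, and plasmacytoid dendritic cell genes, Siglech not among them, at -0.11 and 0.59.

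**Figure D3:**
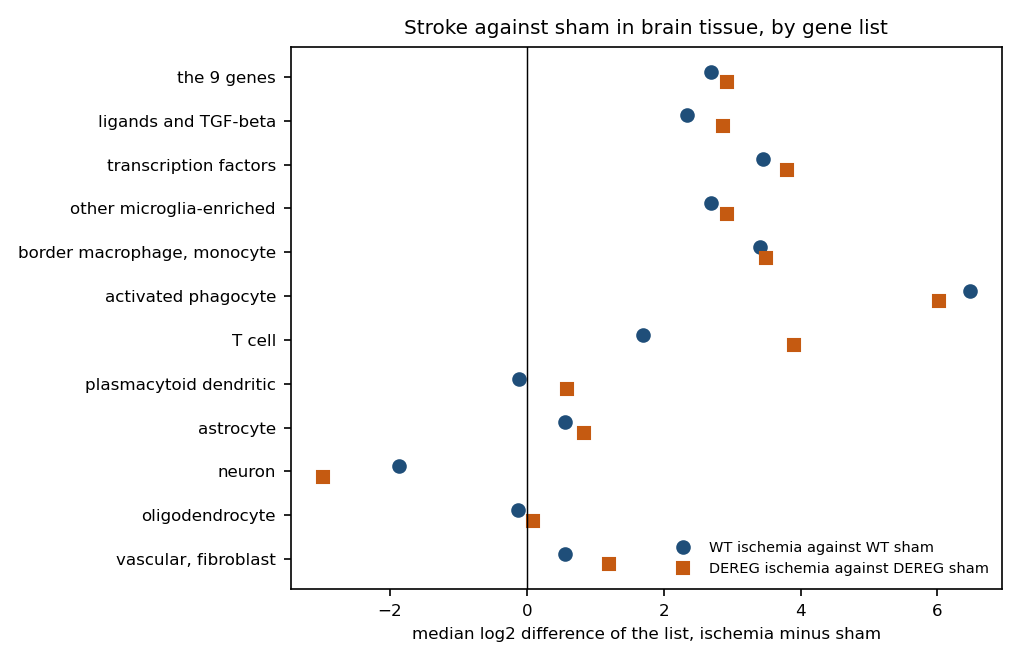
Median log2 difference between ischemia and sham of the 9 genes and of 11 marker lists in WT and DEREG brain tissue, 1 array per group, with lower bounds taken at their bound. The 9 genes lie at 2.69 and 2.92, the other microglia-enriched genes at the same medians, activated phagocyte genes at 6.47 and 6.02, and neuron genes at -1.87 and -2.98.

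Among 15111 genes well above background on all 4 tissue arrays, those whose centred log2 profile lay nearest to the mean profile of the 9 included P2ry13, Tgfbr1, BC028528, Plxdc2 and Vat1, with root mean square distances over 4 arrays of 0.029, 0.034, 0.040, 0.041 and 0.043. P2ry13, a nucleotide receptor related to P2ry12, read 219.9 (WT sham), 196 (DEREG sham), 1093 (WT ischemia) and 1278 (DEREG ischemia). Tgfbr1, the type I TGF-beta receptor, read 338, 324, 1658 and 1944. Among the 9 themselves, Sall1 (0.113), Tmem119 (0.141), Olfml3 (0.169), Gpr34 (0.193), Csf1r (0.228) and Cx3cr1 (0.247) lay close to that mean, while P2ry12 (0.625), Fcrls (1.083) and Siglech probe 1 (1.325) lay farthest. The 9 genes make up that mean, Siglech by probe 1, so their distances are not independent of it. The other genes named above lay nearer to it than any of the 9. Likeness over 4 arrays describes these arrays only.

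The T cell arrays gave signals for the same genes. All 13 probes were well above background in brain nonTreg and in brain Treg, but 5 of 13 in each spleen library (4 genes in spleen nonTreg and 3 in spleen Treg). Brain Treg held more than brain nonTreg for 7 of the 9 genes at 2-fold, against 4.63% of 13756 genes, and 0 were lower by that much, against 2.86%. With normexp, P2ry12 and Sall1 of these 7 fell under 2-fold. Above 0 were 8 of 9, against 51.5%. The median of the 9 was 1.28, against 0.01 over all genes. Which cells in these libraries carried the transcripts was not tested.

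**Figure D4:**
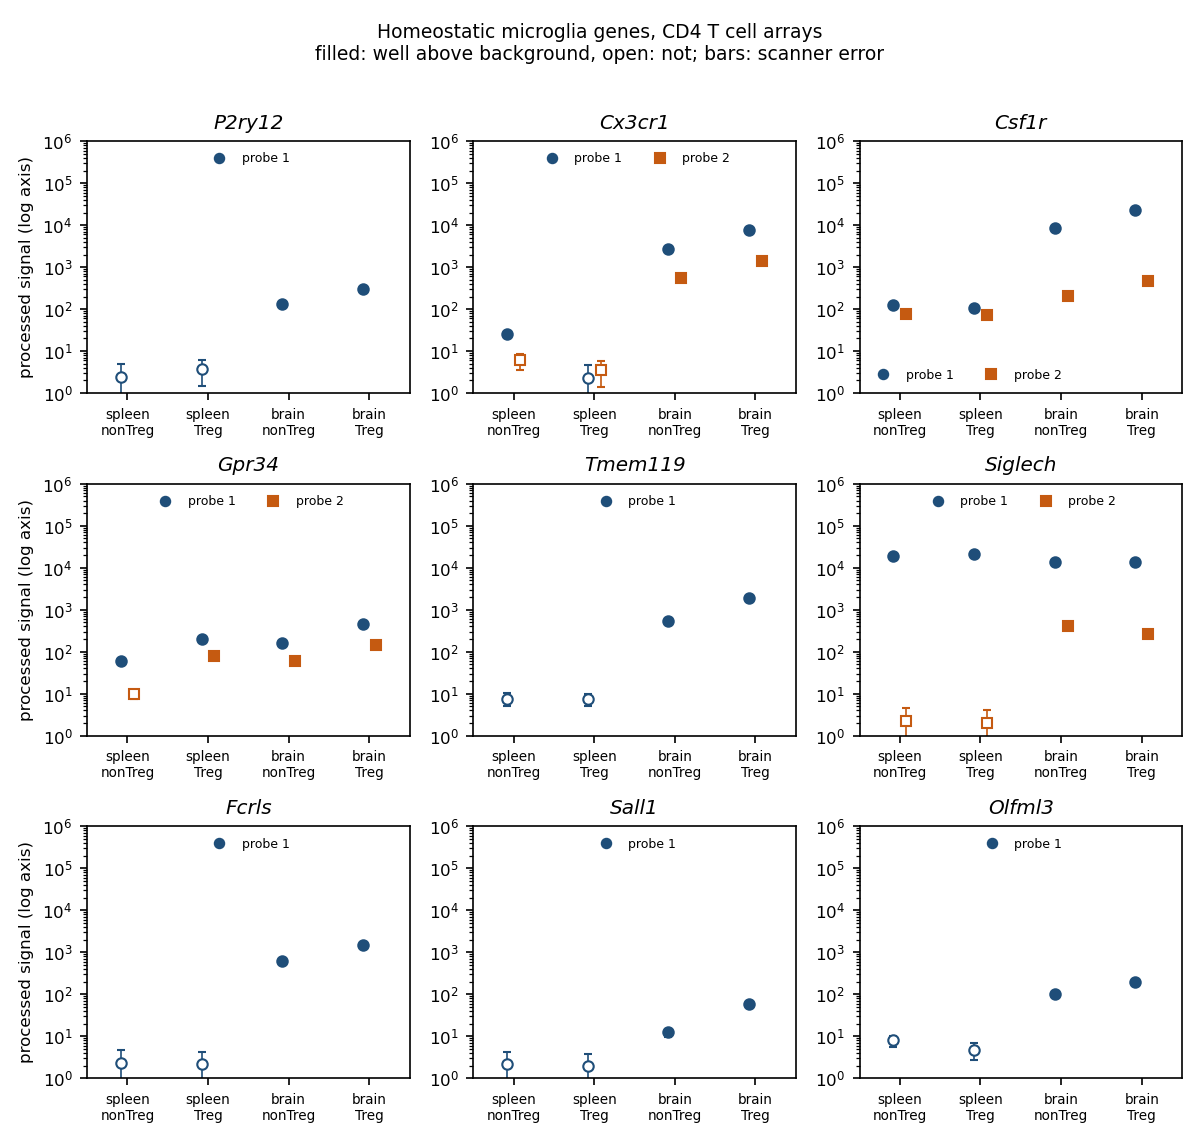
Processed signal (log axis, arbitrary fluorescence units) of every probe of the 9 genes on the 4 CD4+ T cell arrays, 1 array per group. Filled symbols are well above background, open symbols are not, and bars show the scanner error. All probes are filled in both brain libraries, and 5 are filled in each spleen library.

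P2ry12 signal was 132 in brain nonTreg and 299 in brain Treg, and 2.48 and 3.74, neither above background, in spleen nonTreg and spleen Treg. The brain Treg signal was 2.09-fold that of brain nonTreg, and at least 24.7-fold that of spleen Treg. Brain nonTreg exceeded spleen nonTreg by at least 9.42-fold. With normexp background correction the P2ry12 difference between the brain libraries was 0.78 on the log2 scale, under 2-fold, and those from the spleen were 1.92 (Treg) and 1.03 (nonTreg) in place of 4.63 and 3.24. The order was therefore brain Treg, brain nonTreg, then both spleen libraries, which have no order below background.

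Cx3cr1 probe 1 read 2668 in brain nonTreg, 7615 in brain Treg, 25.6 in spleen nonTreg and 2.30, below background, in spleen Treg. Its second probe read 548, 1376, 6.08 and 3.64, the last 2 not above background. Cx3cr1 was 2.63-fold (probe 1) and 2.31-fold (probe 2) higher in brain Treg than in brain nonTreg. By probe 1, brain Treg exceeded spleen Treg by at least 630-fold and brain nonTreg exceeded spleen nonTreg by 73.8-fold. In the spleen the order was the reverse, with Treg at least 3.25-fold lower than nonTreg, a Cx3cr1 difference of -1.70 that was -0.49, under 2-fold, with normexp and -0.66 as the median over probes.

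Csf1r probe 1 read 8707 in brain nonTreg, 22916 in brain Treg, 127 in spleen nonTreg and 106.8 in spleen Treg. Csf1r probe 2 read 206, 469.6, 75.1 and 71.5, above background in each. In the brain, Treg exceeded nonTreg by 2.42-fold and 2.10-fold. Against the spleen the probes parted: brain Treg exceeded spleen Treg by 158-fold by probe 1 and 4.83-fold by probe 2, and brain nonTreg exceeded spleen nonTreg by 48.6-fold and 1.94-fold. Both probes gave brain Treg the highest and spleen Treg the lowest signal.

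Of the 4 genes that could be compared between the spleen libraries, Gpr34 alone was at least 2-fold higher in Treg. Probe 1 read 163 in brain nonTreg, 459 in brain Treg, 60.1 in spleen nonTreg and 198.5 in spleen Treg, and probe 2 read 60.8, 142, 10.1 (not above background) and 79.3. In both tissues Treg lay above nonTreg, by 2.59-fold in the brain and 2.93-fold in the spleen by probe 1, and by 2.15-fold and at least 6.97-fold by probe 2. Brain Treg exceeded spleen Treg by 1.70-fold by probe 1 and 1.32-fold by probe 2, under 2-fold by both.

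Tmem119 read 542 in brain nonTreg, 1863 in brain Treg, 7.67 in spleen nonTreg and 7.54 in spleen Treg, the spleen values not above background. It was 3.16-fold higher in brain Treg than in brain nonTreg, and brain Treg exceeded spleen Treg by at least 154-fold. Fcrls read 609, 1488, 2.30 and 2.25 in the same order, a 2.25-fold difference in the brain and at least 123-fold between brain Treg and spleen Treg. For both genes every brain signal lay above every spleen signal. With normexp the differences of brain Treg from spleen Treg were 4.24 for Tmem119 in place of 7.27 and 4.18 for Fcrls in place of 6.94.

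Siglech again depended on the probe. Probe 1 read 13757 in brain nonTreg, 14008 in brain Treg, 19047 in spleen nonTreg and 21787 in spleen Treg, and was 2.12-fold lower in brain Treg than in spleen Treg. Probe 2 read 404 and 260 in the brain and 2.25 and 2.06, not above background, in the spleen, at least 21.5-fold higher in brain Treg than in spleen Treg. Between brain Treg and brain nonTreg, Siglech was -0.09 ± 0.20 by probe 1 and -0.76 ± 0.20 by probe 2. Siglech was the one gene of the 9 that was not higher in brain Treg by either of its probes.

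Sall1 was dim, with 12.3 in brain nonTreg, 60.4 in brain Treg and 2.17 and 1.94, not above background, in spleen nonTreg and spleen Treg. Its brain Treg to nonTreg difference, 2.17 ± 0.34 (4.5-fold), had the widest scanner error of the 13 probes and was 0.66 with normexp, and brain Treg exceeded spleen Treg by at least 5.0-fold, or 2.32, which was 0.56 and under 2-fold with normexp. Brain nonTreg and spleen nonTreg could not be set apart for Sall1. Olfml3 read 104 in brain nonTreg, 197 in brain Treg, 8.04 in spleen nonTreg and 4.84 in spleen Treg, the spleen values not above background, and was 1.74-fold higher in brain Treg than in brain nonTreg.

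**Figure D5:**
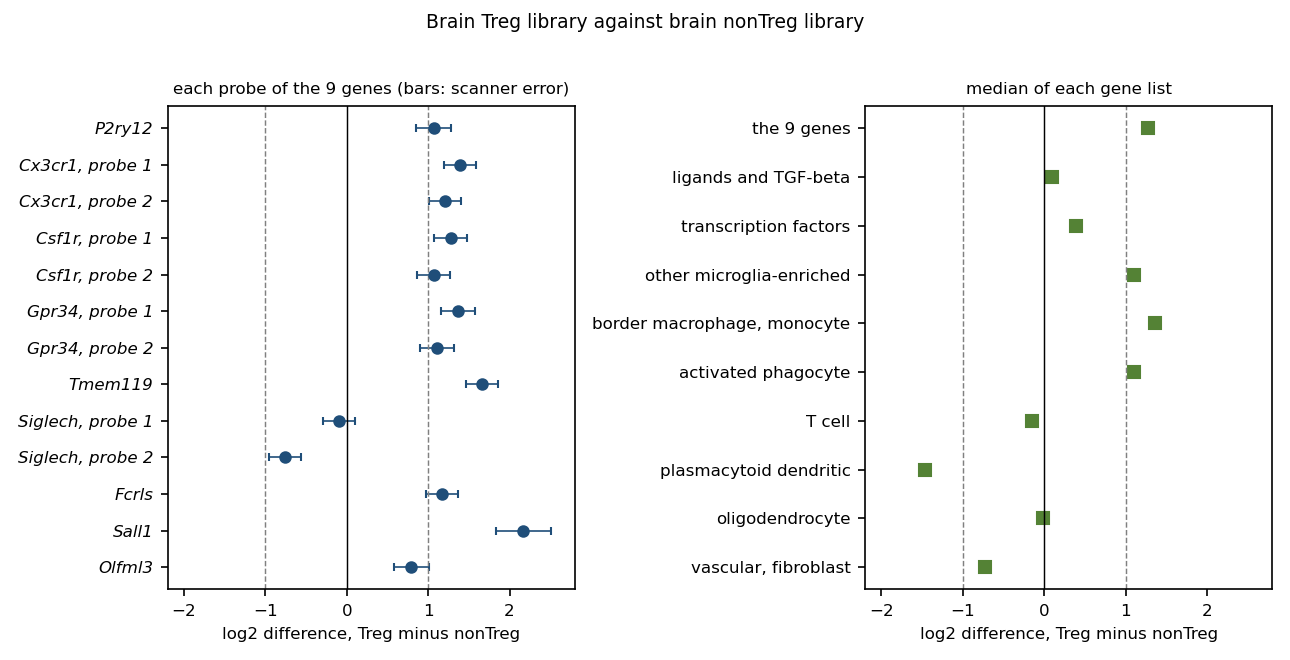
Left, log2 difference between the brain Treg and brain nonTreg arrays for each probe of the 9 genes, with bars for the scanner error; right, the median difference of the 9 genes and of 9 marker lists, with lower bounds taken at their bound; dashed lines mark 2-fold. Probes of 8 genes lie to the right of 0, both Siglech probes lie to its left, and plasmacytoid dendritic genes have the lowest median (-1.47).

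Between brain Treg and spleen Treg, 7 of the 9 genes were at least 2-fold higher and 1 (Siglech, by probe 1) at least 2-fold lower, with 6 of the differences being lower bounds, against 17.2% and 11.7% of 13779 genes. The bounds hold for the background subtraction of the scanner software, and with normexp, which adds an offset to every signal, all 6 of these were smaller. Between brain nonTreg and spleen nonTreg, 6 of the 8 genes compared were at least 2-fold higher, against 17.8% of 13404 genes, and 0 were lower, against 12.1%. Fcrls (at least 43.7-fold), Tmem119 (at least 38.8-fold) and Olfml3 (at least 7.47-fold) were among them, with log2 values of 5.45, 5.28 and 2.90 that were 2.89, 2.52 and 0.79 with normexp, the last under 2-fold. Between spleen Treg and spleen nonTreg 4 genes could be compared, of which Gpr34 was at least 2-fold higher and Cx3cr1 at least 2-fold lower, against 5.38% and 3.24% of 12546 genes.

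Only Csf1r, Gpr34 and Siglech were above background on all 4 T cell arrays, so that the brain to spleen difference could be compared between Treg and nonTreg. It was larger in Treg by 1.70 ± 0.29 for Csf1r probe 1 and 1.31 ± 0.29 for Csf1r probe 2, and differed by -0.18 ± 0.29 for Gpr34 and -0.12 ± 0.29 for Siglech probe 1. Of 11301 genes, 2.3% were higher by 2-fold or more in this sense and 3.79% lower. These differences share the 4 arrays with those above.

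Other myeloid genes differed beside the 9 between the brain T cell libraries. Of 27 other microglia-enriched genes, 14 reached 2-fold in favour of brain Treg (median 1.1), as were 8 of 13 border macrophage and monocyte genes compared (median 1.36) and 8 of 15 activated phagocyte genes (median 1.1), among them Spp1, encoding osteopontin (4.28-fold). Plasmacytoid dendritic cell genes lay on the other side, where 5 of 9 were at least 2-fold lower (median -1.47), led by Klk1 (-2.10), Ly6d (-1.80) and Ccr9 (-1.72). Siglech probe 2 lay on the same side as those genes. Neutrophil and conventional dendritic cell genes both had medians of 0.02, B cell genes of -0.45, and vascular and fibroblast genes of -0.73.

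T cell genes had a median of -0.15 between brain Treg and brain nonTreg, with 1 of 10, Foxp3 (5.29-fold higher), at 2-fold. The summed scaled signal of the T cell list ranged from 218 to 241 over the 4 T cell libraries. That of the border macrophage and monocyte list was 70.4 in brain nonTreg, 42.2 in brain Treg, 21.6 in spleen nonTreg and 16.3 in spleen Treg, so its sum was lower in brain Treg although its median gene was higher. Astrocyte genes were near background, with 4 of 10 above it in each brain T cell library and summed signals of 0.43 and 0.668, and 4 of 10 neuron genes were above it, with sums of 1.37 and 1.23. Of 13 vascular and fibroblast genes, 11 were above background in brain nonTreg and 10 in brain Treg, against 1 in each spleen library. Their sums were 2.99 and 1.79 in the brain, and 0.242 (nonTreg) and 0.188 (Treg) in the spleen. Of 8 oligodendrocyte genes, 7 were above background in each brain library and 5 in each spleen library. Their sums were 8.19 and 5.7 in the brain, and 8.04 (nonTreg) and 6.96 (Treg) in the spleen. The part of other cells in the values of the 9 genes was not tested.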

How the data were processed

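RNA of brain slices (QIAzol) and of CD4+ T cells (TRIzol LS) was labelled with Cy3 and hybridised to 8 arrays of 1 slide with 1 scan time, per the labels' protocols and file headers. T cell arrays lie in slide row 1 and tissue arrays in row 2. The deposited scanner files hold, per the file headers, a processed intensity from which the software, Agilent Feature Extraction 10.7.1.1, had subtracted background. Values in the series table deposited by the authors are that signal on a linear scale, divided by about each array's 75th percentile as a comparison of both showed (column medians 0.068 to 0.123). It served as an alternative.

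Probes (56605, of which 23611 stayed unnamed) were named through RefSeq accessions of GRCm38.p6. Spots of a probe were averaged. Each array had 69 to 109 flagged spots, which were left out unless all spots of the probe were flagged. Log2 signals were scaled by subtracting the array's 75th percentile, over all probes (tissue) or over probes above background on all 4 arrays (T cells). Counts of genes use each gene's brightest probe. A gene entered a comparison if above background on at least 1 array, and a dim side gave a lower bound. Called means 2-fold. The counting was tested on simulated data built from the WT sham array. Their noise was smaller than the scanner error, so the test does not show how counts hold at the noise of these arrays.

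Alternatives were normexp background correction (limma 3.58.1, R 4.3.3, offset 50, on median signals because mean signals were not in the files used), quantile normalization, another probe set or the median for scaling, no filter or a stricter filter on dim probes, the median over probes, the series table and, chosen after seeing the data, the lowest probe. The 9 genes and the marker lists (14 lists, 150 symbols, 1 of which, Clec7a, had no probe) were chosen with earlier results of these data known. From the lists, at most the 3 largest differences each way per comparison are named, with Csf1, Il34, Cx3cl1, Spi1 and Sall3 always named. Of the 6 genes with the most alike profile, 1 is not reported here. Analyses used Python 3.11.15 with numpy 2.4.6, pandas 2.3.3 and matplotlib 3.10.9.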

Additional observations from a re-analysis of the deposited data

Results flagged for a closer look

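By each gene's brightest probe, the 9 genes lay on opposite sides of 0 between DEREG and WT in the 2 conditions. They were lower in DEREG after sham and higher after stroke. This difference was not tested, each side being 1 pair of arrays, and the opposite sides mark the listed values only. Over all genes compared, 51.8% were below 0 between the shams and 58.7% above 0 after stroke. The share with both was not counted. Under quantile normalization, 6 of the 9 were above 0 after stroke and 3 below. P2ry12 was -0.38 in sham and 0.33 after stroke and Fcrls -0.35 and 0.26, each beyond its scanner error on both sides. Csf1r was -0.20 and 0.32, the first about equal to its scanner error and not seen by its other probe. Within 1 scanner error on at least 1 side were Cx3cr1 (-0.18 and 0.17), Gpr34 (-0.28 and 0.03), Tmem119 (-0.10 and 0.21), Siglech (-0.18 and 0.04), Sall1 (-0.19 and 0.43) and Olfml3 (-0.20 and 0.01).

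Treg against nonTreg also gave opposite sides in brain and spleen for 3 genes, likewise not tested. Cx3cr1 was 1.39 in the brain and -1.70 in the spleen, where the second value is a bound under the scanner software's background subtraction and was -0.49 with normexp, and Csf1r was 1.28 and -0.42. Siglech was -0.09 and 0.02 by probe 1, both within the scanner error.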

How the results depend on the processing

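Of 78 differences of single genes, recomputed under each alternative, 624 values stayed within the scanner error of the reported value, 61 moved further, and in 2 a difference of at least 2-fold changed sign. Many of the 624 could not move. For a gene with 1 probe, above background on the arrays compared, the filter and probe settings repeat the reported value. With a dim side the scanner error was wide, up to 1.47 for Cx3cr1 between the spleen libraries, so large moves could stay within it. Both changes of sign from at least 2-fold were Siglech between brain Treg and spleen Treg, -1.08 by its brightest probe, 2.73 by the median over probes and 4.43 by the lowest probe, since its probes disagree. Differences under 2-fold changed sign too. Siglech by its lowest probe was 4.86 in place of -0.97 between the nonTreg libraries, 0.95 in place of -0.26 after stroke in WT and 1.49 in place of -0.04 in DEREG, and between the spleen libraries it ran from -0.14 to 0.10. Between DEREG and WT ischemia, Gpr34, Siglech and Olfml3 reached -0.02, -0.14 and -0.04. Csf1r between the shams reached 0.02, and Gpr34 in the brain to spleen difference of Treg minus nonTreg 0.14. The counts of the 9 genes at 2-fold after stroke, between genotypes and between brain Treg and brain nonTreg stayed within 1.5 times under every alternative. Between brain Treg and brain nonTreg, P2ry12 (0.78) and Sall1 (0.66) fell under 2-fold with normexp. Bounds against the spleen were smaller with normexp, where brain Treg minus spleen Treg was 6.22 for Cx3cr1 in place of 9.30 and 1.57 for Olfml3 in place of 4.02. Counts that rest on bounds changed. With only genes above background on both arrays, 2 in place of 8 genes were at 2-fold between brain Treg and spleen Treg, and 2 in place of 6 between brain nonTreg and spleen nonTreg. Between spleen Treg and spleen nonTreg 1 in place of 2 was at 2-fold with normexp, with that filter, with the median over probes and with the lowest probe. For the brain to spleen difference of Treg minus nonTreg, no filter on dim probes gave 6 in place of 1. The median of all genes between WT ischemia and WT sham ran from -0.05 to -0.31 over the scalings.

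Counts over all genes moved more. Normexp gave 171 genes higher and 103 lower between brain Treg and brain nonTreg in place of 637 and 394, and 167 and 408 between DEREG and WT ischemia in place of 398 and 905. With no filter these were 1271 and 997, and 784 and 1396. Between the shams normexp gave 11 and 2 and no filter 542 and 392, in place of 96 and 73, and genes above background on both arrays gave 44 and 18. For the stroke difference of DEREG minus WT normexp gave 80 and 411 and no filter 1083 and 1757, in place of 137 and 788. Between brain Treg and spleen Treg normexp gave 1239 and 907, no filter 3313 and 2552 and the strict filter 1450 and 1383, in place of 2372 and 1619. Between the nonTreg libraries these were 1220 and 889, 3308 and 2589, and 1447 and 1334, in place of 2389 and 1618. Between spleen Treg and spleen nonTreg they were 251 and 132, 1309 and 1152, and 479 and 227, in place of 675 and 406. For the brain to spleen difference of Treg minus nonTreg normexp gave 109 and 168 and no filter 2017 and 1733, in place of 260 and 428. No paired analysis was possible because each group has 1 array. Signals near background limit Sall1, Spi1 and the spleen values.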
